A study of Homo sapiens with 4 samples.

Results

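The nuclear import, export and pore genes are a list of 55 genes that carry molecules between nucleus and cytoplasm or build the channel they pass through. They were taken by gene symbol from the 67062 rows of the count table, and all 55 were found and tested among 15918 tested genes. They comprise 7 exportins, 6 importin alpha adaptors, 11 import receptors of the importin beta family, 5 genes of the RAN cycle, both subunits of the mRNA export receptor and 24 nucleoporins.

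Nuclear pores are large protein channels in the nuclear envelope. Import receptors bind their cargo in the cytoplasm, directly or through an importin alpha adaptor, and release it in the nucleus when they meet the small GTPase RAN in its GTP form. Exportins bind cargo together with RAN-GTP and release it outside, where RANGAP1 and its partners trigger GTP hydrolysis. The cells studied here carry a mutant NPM1 whose new tail holds an export signal read by the exportin XPO1, which carries the protein into the cytoplasm.

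OCI-AML3, an established human acute myeloid leukaemia line with mutant NPM1 (NPM1c+), was transduced with a retroviral pMSCV-PIG vector that expresses the long noncoding RNA LONA (group PIG-LONA) or with the vector lacking it (group PIG-EMPTY). Both vectors also express puromycin resistance and GFP, and GFP-positive cells were sorted, so all 4 cultures are transduced, sorted cells of 1 line. The labels give 2 independent transductions per vector and 2 poly(A) RNA libraries per group, without tying each library to a transduction, so p-values measure the spread between these libraries. LONA is driven by an RNA polymerase II promoter in the vector, and its level is not analysed here.

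Total counts ran from 29819572 to 38358442 per library. The myeloid marker CD33 was at 98.3 to 104 CPM (read counts scaled to a common library size) and did not pass the test between groups, nor did CEBPA, PTPRC and MPO, of which MPO was low at 2.10 to 2.78 CPM. The other 3 of the 7 myeloid markers were called lower in PIG-LONA by edgeR: ANPEP by a log2 fold change of -0.57 (adjusted p = 2.14e-06), LYZ by -0.70 (adjusted p = 0.000637) and SPI1 by -0.13 (adjusted p = 0.0346). The PIG-EMPTY replicates of LYZ lay apart, at 52.8 and 34.1 CPM, with 26.0 and 27.1 CPM in PIG-LONA. Of 11 markers of other lineages, 5 (EPCAM, MS4A1, CD3E, HBA1 and HBB) were at 0 in all 4 libraries. The summed level of these 11 was 32.6 and 33.7 CPM in PIG-EMPTY and 26.7 and 26.9 CPM in PIG-LONA, nearly all of it PECAM1, which myeloid cells also express. PECAM1 was itself called lower in PIG-LONA, by a log2 fold change of -0.31 (edgeR adjusted p = 0.00190). The part of these marker differences in the results below was not tested. In such bulk samples fewer cells of a type and less RNA per cell cannot be told apart.

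Of the 55 genes, 6 rose in PIG-LONA, 0 fell and 49 did not pass the test (quasi-likelihood test of edgeR at an adjusted p under 0.05, adjusted by Benjamini-Hochberg across every tested gene). The 6 were NUP153, XPO5, NUP43 and KPNA5, which are all 4 listed genes on chromosome 6, and CSE1L and NUP133 on other chromosomes. Every rise was small, from 9.39% for CSE1L to 24.9% for KPNA5. Among all tested genes 6.43% were called, 2.93% higher and 3.50% lower. The background differed by chromosome, with 30.0% of the 799 tested genes of chromosome 6 called (28.3% higher, 1.75% lower) and 5.19% of 15119 elsewhere (1.59% higher, 3.59% lower). Against this, 4 of 4 listed genes on chromosome 6 and 2 of 51 elsewhere (CSE1L and NUP133) were called higher.

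No listed gene was called lower. At an unadjusted p under 0.05 the count was 1 lower (NXT1) and 15 higher in edgeR, beside 9.43% and 9.23% of all tested genes, and DESeq2 called 0 lower. The standard error of the log2 fold change had a median of 0.04 over the 55 genes.

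**Figure D1:**
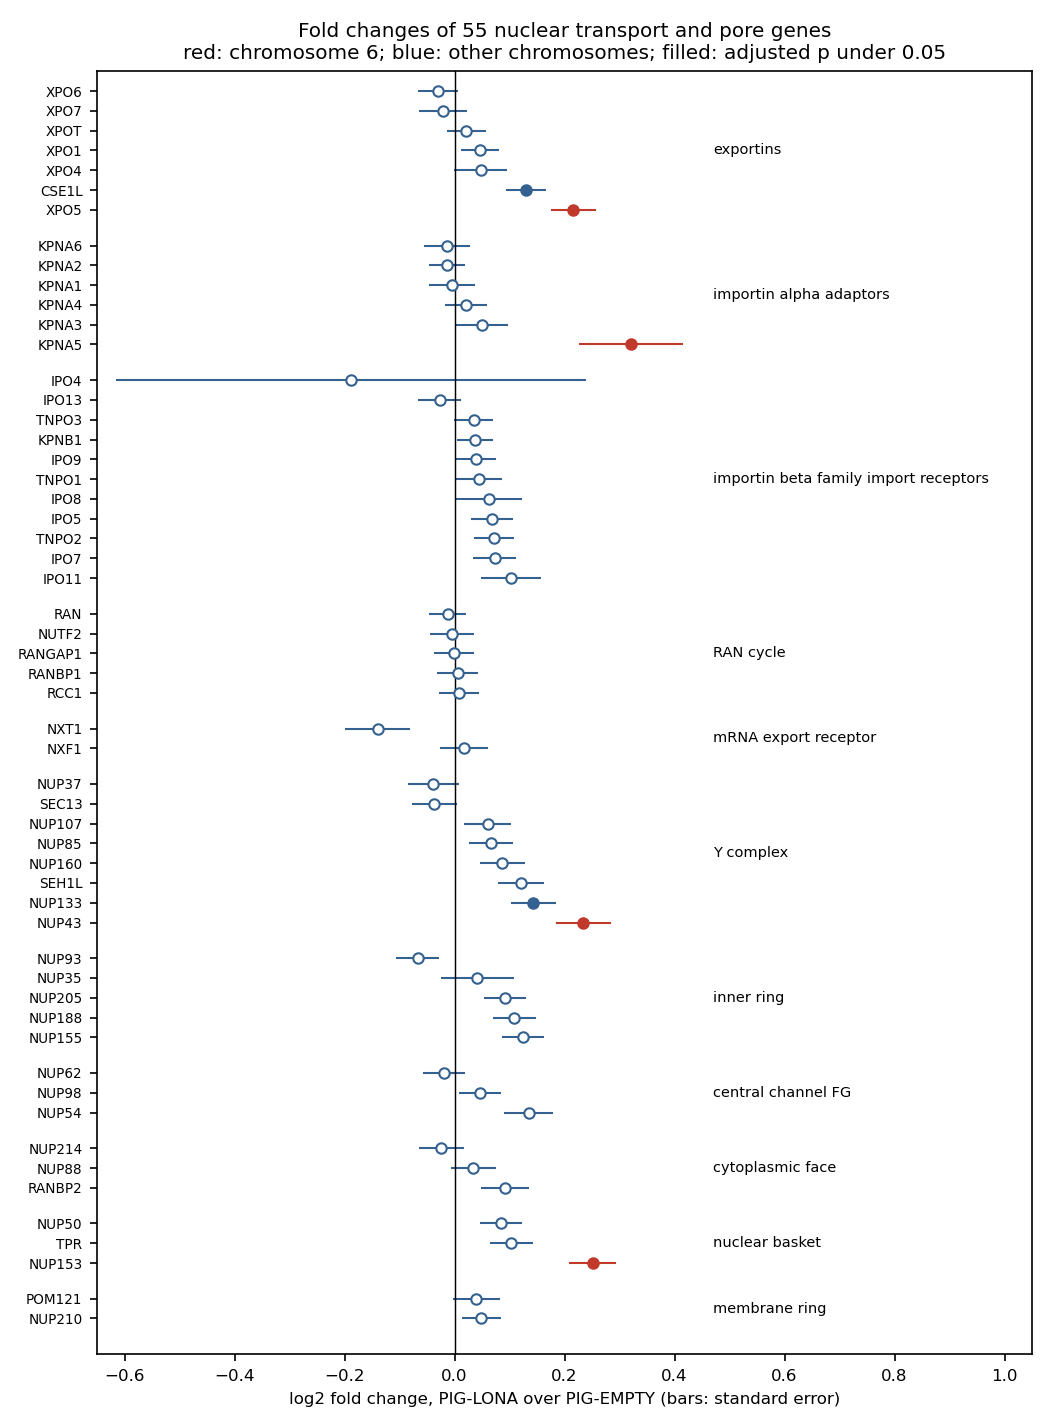
Log2 fold change of PIG-LONA over PIG-EMPTY (x axis) with its standard error for each of the 55 genes (rows, grouped by class). Filled points passed the test; the 4 red points of chromosome 6 lie between 0.22 and 0.32, and most blue points lie within 0.1 of 0.

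The stretch before the transcription start annotated by RefSeq is shown for the called genes found in the RefSeq table. This lets the letters upstream of the genes that rose be compared (250 bases, GRCh38.p14, read 5′ to 3′ on the gene's strand). Capitals mark every match, on either strand, to the 7 motifs searched; those found were CCAAT boxes (CCAAT), ETS cores (CGGAAG) and GC boxes (GGGCGG), and overlapping matches run together. The windows are chr6:17706926-17707175 and chr6:43576039-43576288 on the minus strand, chr20:49046062-49046311 on the plus strand and chr1:229508342-229508591 on the minus strand. KPNA5 and NUP43 have no entry in the RefSeq table. RefSeq and GENCODE starts differ, and the XPO5 and CSE1L windows reach into the GENCODE gene positions given below. The ETS core of XPO5 nearest the RefSeq start and the GC box of CSE1L lie inside those positions.
NUP153: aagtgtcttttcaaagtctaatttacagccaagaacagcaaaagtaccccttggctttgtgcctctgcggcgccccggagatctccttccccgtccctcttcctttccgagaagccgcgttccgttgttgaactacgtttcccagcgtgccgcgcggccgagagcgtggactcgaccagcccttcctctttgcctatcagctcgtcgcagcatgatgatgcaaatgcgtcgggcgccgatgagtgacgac
XPO5: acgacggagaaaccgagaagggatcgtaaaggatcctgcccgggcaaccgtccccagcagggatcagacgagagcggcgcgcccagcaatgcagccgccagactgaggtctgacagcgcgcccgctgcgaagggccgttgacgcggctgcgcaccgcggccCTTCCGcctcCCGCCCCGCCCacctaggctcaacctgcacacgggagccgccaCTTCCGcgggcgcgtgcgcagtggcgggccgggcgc
CSE1L: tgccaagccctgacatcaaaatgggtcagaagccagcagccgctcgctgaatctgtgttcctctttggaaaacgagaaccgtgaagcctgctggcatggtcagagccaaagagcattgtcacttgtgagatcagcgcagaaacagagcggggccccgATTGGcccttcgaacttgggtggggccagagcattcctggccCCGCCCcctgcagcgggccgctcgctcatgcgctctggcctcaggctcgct
NUP133: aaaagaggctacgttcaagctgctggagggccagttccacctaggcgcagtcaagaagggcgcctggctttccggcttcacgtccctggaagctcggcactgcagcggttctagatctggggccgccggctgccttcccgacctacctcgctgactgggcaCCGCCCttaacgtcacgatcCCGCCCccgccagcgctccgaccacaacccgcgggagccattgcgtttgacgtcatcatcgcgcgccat

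The XPO5 stretch held 2 ETS cores and 2 overlapping GC boxes, the CSE1L stretch 1 CCAAT box and 1 GC box, the NUP133 stretch 2 GC boxes and the NUP153 stretch none of the 7 motifs searched. No searched motif was in all 4, and the GC box was in 3. Of the 55 genes 49 matched the table, with 65 windows, and their median GC content was 63.6% against 58.0% for all 35116 windows. An ETS core was in 35.4% of the members' windows and 16.5% of all windows, and a GC box in 58.5% and 42.6%. An E-box (CACGTG) was in 13.8% and 6.34%, and the palindromic NRF1 core (CGCATGCG) in 6.15% and 1.73%. A CCAAT box was in 36.9% and 32.0%, a TATA box (TATAAA) in 7.69% and 10.7%, and an E2F site (GCGGGAAA) in 0% and 1.39%. Windows of 1 gene can overlap, and a match describes letters only.

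The exportins carry proteins and some RNAs out of the nucleus. XPO5, which exports precursor microRNAs, lies on chromosome 6 (ENSG00000124571.18; chromosome 6, 43522330 to 43576075, GRCh38, gene on the minus strand). Its level was 175 and 165 CPM in PIG-EMPTY replicates 1 and 2 and 193 and 202 CPM in PIG-LONA replicates 1 and 2. Both PIG-LONA libraries lay above both PIG-EMPTY libraries, and XPO5 rose from 170.1 ± 7.49 to 197 ± 6.84 CPM (mean ± SD of 2 libraries). Its log2 fold change, here and below with the SE, was 0.22 ± 0.04 (edgeR adjusted p = 0.00218). CSE1L, which returns importin alpha to the cytoplasm (ENSG00000124207.17; chromosome 20, 49046246 to 49096960), was at 299 and 292 CPM in PIG-EMPTY replicates 1 and 2 and 317 and 329 CPM in PIG-LONA replicates 1 and 2. The groups did not overlap and CSE1L rose by a log2 fold change of 0.13 ± 0.04 (edgeR adjusted p = 0.0351).

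XPO1, the main exportin of proteins with leucine-rich export signals and the one that exports mutant NPM1, did not pass the test. It stood at 618 and 615 CPM in PIG-EMPTY and 621 and 652 CPM in PIG-LONA, a log2 fold change of 0.05 ± 0.03 (edgeR adjusted p = 0.531). Replicate 1 of PIG-LONA was just above the PIG-EMPTY libraries and replicate 2 further above them, and XPO1 was called higher (edgeR adjusted p = 0.0126) without PIG-LONA replicate 1, its adjusted p running from 0.0126 to 0.905 over the 13 other settings. The tRNA exportin XPOT, the actin exportin XPO6, and XPO4 and XPO7 had log2 fold changes between -0.03 and 0.05, with overlapping groups in all 4.

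Levels of different genes are compared only per length, as CPM per kilobase of the longest coding transcript. On that scale XPO1 was highest among exportins, at 125 ± 0.512 in PIG-EMPTY (mean ± SD), followed by CSE1L at 83.1 ± 1.54, and XPO4 was lowest at 9.30 ± 0.271. XPO6 (55.1 ± 0.832) and XPOT (54.6 ± 0.806) did not differ beyond their spread on that scale. With the exon union as length CSE1L stood above XPO1, and XPOT (47.6 ± 0.702) above XPO6 (34.5 ± 0.521). The order within both pairs thus depends on the transcript assumed.

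Importin alpha adaptors read the classical import signal and link cargo to KPNB1. KPNA5 (ENSG00000196911.11; chromosome 6, 116681187 to 116741866) had the lowest level per length of the 6 (0.787 CPM per kilobase in PIG-EMPTY). Its level was 8.86 and 8.95 CPM in PIG-EMPTY replicates 1 and 2 and 10.9 and 11.3 CPM in PIG-LONA replicates 1 and 2, from raw counts of 264 to 436. The groups did not overlap and KPNA5 rose by a log2 fold change of 0.32 ± 0.09 (edgeR adjusted p = 0.0447), the largest rise in the list and the least precise of the 6 called. The other 5 adaptors had log2 fold changes between -0.01 and 0.05 and did not pass. KPNA3 had the smallest p of these, with 75.1 and 69.2 CPM in PIG-EMPTY and 73.8 and 75.5 CPM in PIG-LONA and overlapping groups. In KPNA2 both PIG-LONA libraries lay below both PIG-EMPTY libraries, and the groups of KPNA1, KPNA4 and KPNA6 overlapped.

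KPNA2 dominated this family. Per length it held 79.5% ± 0.195 of the summed importin alpha level in PIG-EMPTY and 79.2% ± 0.264 in PIG-LONA (SD, n = 2), while KPNA4, KPNA6, KPNA3 and KPNA1 held 4.67% to 5.50% each in PIG-EMPTY. KPNA5 went from 0.244% ± 0.00162 to 0.306% ± 0.00969 of the family. With the exon union as length the KPNA2 share was 76.4% in PIG-EMPTY.

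**Figure D2:**
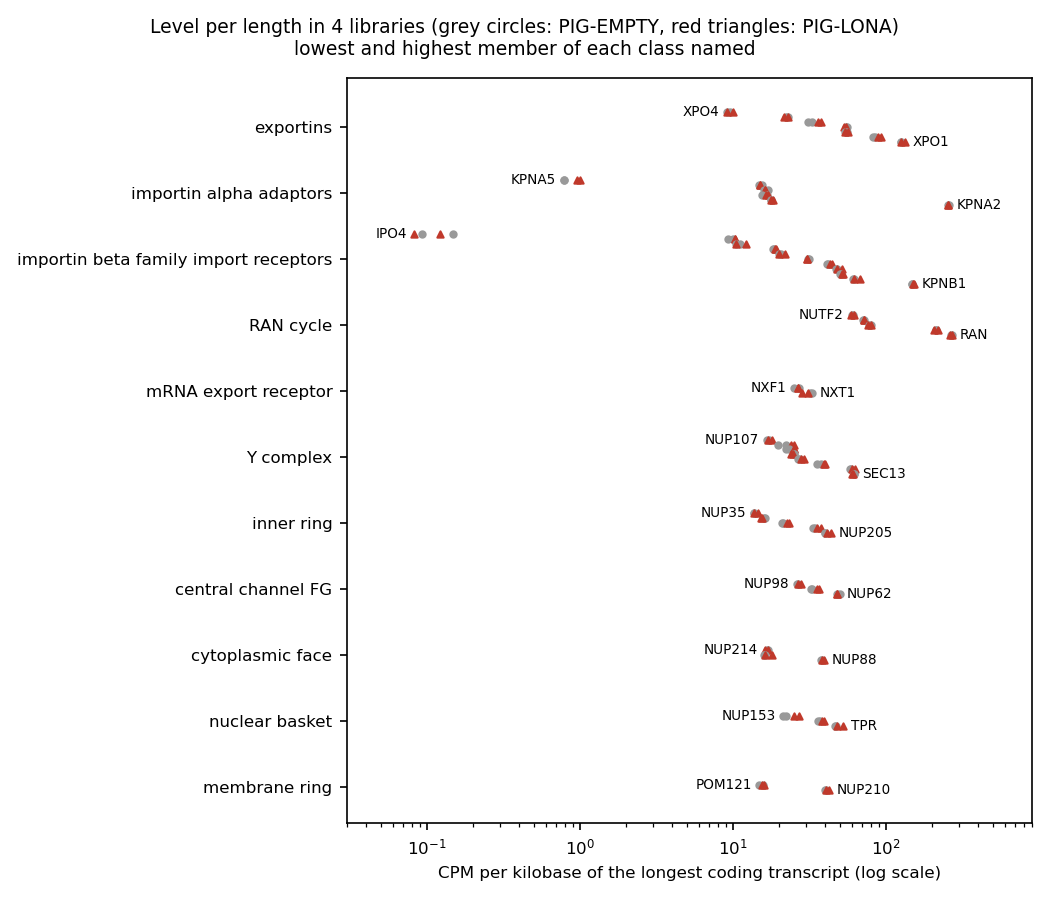
Level per length (x axis, CPM per kilobase, log scale) in each library for each class (rows), with the lowest and highest member named. RAN and KPNA2 are highest, at 268 and 257 in PIG-EMPTY, and the circles and triangles of a gene nearly coincide.

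Of the 11 import receptors of the importin beta family, 0 passed in either direction, beside 6.43% of all tested genes. KPNB1, the partner of importin alpha and the highest of the family per length (148 CPM per kilobase in PIG-EMPTY), was at 902 and 910.4 CPM in PIG-EMPTY and 923 and 937 CPM in PIG-LONA, a log2 fold change of 0.04 ± 0.03 (edgeR adjusted p = 0.603). TNPO2, a transportin that imports RNA-binding proteins, was at 212 and 213 CPM in PIG-EMPTY and 219 and 228 CPM in PIG-LONA, a log2 fold change of 0.07 ± 0.04. IPO11, another import receptor, was at 43.6 and 40.2 CPM in PIG-EMPTY and 44.7 and 45.1 CPM in PIG-LONA, a log2 fold change of 0.10 ± 0.05. In these 3 genes, as in IPO5, IPO9 and TNPO3, both PIG-LONA libraries lay above both PIG-EMPTY libraries by a margin that did not pass, and in IPO13 they lay below. Of all tested genes off chromosome 6, 21.7% lay wholly above and 25.2% wholly below.

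The median log2 fold change of this family was 0.04, against 0.00 for all tested genes. IPO7 and TNPO1 showed a different arrangement: replicate 2 of PIG-LONA stood apart at 419 and 245 CPM, while the other 3 libraries lay at 379 to 384 CPM for IPO7 and 222 to 229.6 CPM for TNPO1. IPO4 had only 9 to 17 raw counts per library. Its exons share 69.3% of their bases on the same strand with another protein-coding gene model, which had counts of 0 to 3, so the IPO4 level is uncertain.

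The RAN cycle supplies the direction of transport. Its genes lay closest to 0 of all 11 classes, between -0.01 and 0.01 on the log2 scale. Of the 5 genes, 0 passed the test, beside 6.43% of all tested genes. RAN, the GTPase itself, was at 724 and 704 CPM in PIG-EMPTY replicates 1 and 2 and 717 and 698 CPM in PIG-LONA replicates 1 and 2, a log2 fold change of -0.01 ± 0.03 (edgeR adjusted p = 0.903). RCC1, the chromatin-bound exchange factor that loads RAN with GTP, was at 206 and 203 CPM in PIG-EMPTY and 206 and 205 CPM in PIG-LONA, a log2 fold change of 0.01 ± 0.04. The other 3 were RANBP1 and RANGAP1, which promote GTP hydrolysis in the cytoplasm, and NUTF2, which returns RAN to the nucleus. The groups overlapped in all 5 genes, with standard errors of 0.03 to 0.04.

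Per length RAN was the highest gene of the list (268 ± 5.32 CPM per kilobase in PIG-EMPTY), with RANBP1 at 212 ± 1.93; with the exon union as length KPNA2 stood above RAN. RANGAP1 was at 78.2 ± 1.57 and RCC1 at 71.8 ± 0.759. The gap between RANBP1 and RANGAP1 also depended on the length used. With the exon union they were at 63.8 ± 0.580 and 61.7 ± 1.24 in PIG-EMPTY.

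NXF1 and NXT1 form the receptor that takes bulk mRNA through the pore. NXF1 was at 112 and 104 CPM in PIG-EMPTY and 109 and 109 CPM in PIG-LONA, a log2 fold change of 0.02 ± 0.04 (edgeR adjusted p = 0.894). NXT1 was at 37.0 and 36.0 CPM in PIG-EMPTY and 34.7 and 31.8 CPM in PIG-LONA, a log2 fold change of -0.14 ± 0.06 (edgeR adjusted p = 0.190), the most negative of the list apart from the sparsely counted IPO4 (-0.19 ± 0.43). Its PIG-LONA libraries lay below its PIG-EMPTY libraries, and it was called lower (edgeR adjusted p = 0.0161) only without PIG-LONA replicate 1. Over the 13 other settings its adjusted p ran from 0.0161 to 0.630.

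Of the 24 nucleoporins 3 rose, 0 fell and 21 did not pass, beside 2.93% higher and 3.50% lower among all tested genes. NUP43 and NUP153 lie on chromosome 6, where 28.3% of tested genes were called higher. Off chromosome 6 the count was 1 of 22 nucleoporins, beside 1.59% of tested genes. The Y complex builds the outer rings of the pore. NUP43, one of its small propeller subunits (ENSG00000120253.14; chromosome 6, 149724315 to 149749665, minus strand), was at 85.4 and 76.6 CPM in PIG-EMPTY replicates 1 and 2 and 93.0 and 97.3 CPM in PIG-LONA replicates 1 and 2. It rose from 81.0 ± 6.22 to 95.2 ± 3.02 CPM, a log2 fold change of 0.23 ± 0.05 (edgeR adjusted p = 0.00522), and the PIG-EMPTY libraries differed from each other by more than the PIG-LONA libraries did. NUP133, a scaffold subunit of the same complex (ENSG00000069248.12; chromosome 1, 229440260 to 229508341), was at 121 and 115 CPM in PIG-EMPTY replicates 1 and 2 and 130.1 and 130.2 CPM in PIG-LONA replicates 1 and 2, a log2 fold change of 0.14 ± 0.04 (edgeR adjusted p = 0.0376). Neither gene's groups overlapped.

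The other 6 Y complex genes did not pass. SEH1L, NUP160, NUP85 and NUP107 had log2 fold changes of 0.12, 0.09, 0.07 and 0.06. NUP37 and SEC13, the latter also a coat protein of secretory vesicles, were both at -0.04. The PIG-LONA libraries lay wholly above the PIG-EMPTY libraries in SEH1L, NUP160 and NUP85 and wholly below in NUP37 and SEC13. The subunits, which join 1 complex, differed 3.55-fold in mean level per length, from NUP107 to SEC13, and 1.94-fold with the exon union as length, where SEH1L was lowest and NUP85 highest.

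The inner ring anchors the channel, and 0 of its 5 genes passed, beside 6.43% of all tested genes. NUP155 was at 173 and 170.0 CPM in PIG-EMPTY and 184 and 189.8 CPM in PIG-LONA, just short of the threshold with a log2 fold change of 0.12 ± 0.04 (edgeR adjusted p = 0.0547). NUP188 was at 196 and 189 CPM in PIG-EMPTY and 201 and 213 CPM in PIG-LONA, a log2 fold change of 0.11 ± 0.04. In both genes the PIG-LONA libraries lay above the PIG-EMPTY libraries. NUP93, which holds the ring together, was at -0.07, NUP205 at 0.09 and NUP35 at 0.04. The PIG-LONA libraries lay wholly below the PIG-EMPTY libraries in NUP93 and wholly above in NUP205, and the groups overlapped in NUP35.

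NUP54, NUP62 and NUP98 carry phenylalanine-glycine repeats that form the selective barrier of the channel. NUP54 was at 76.5 and 77.7 CPM in PIG-EMPTY and 86.1 and 83.3 CPM in PIG-LONA, a log2 fold change of 0.13 ± 0.04 (edgeR adjusted p = 0.0759), with groups that did not overlap. NUP98, which also takes part in leukaemia gene fusions, was at 184 and 187 CPM in PIG-EMPTY and 187 and 197 CPM in PIG-LONA, a log2 fold change of 0.05 ± 0.04, with overlapping groups. NUP62 was at -0.02 ± 0.04. None of these 3 passed.

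On the cytoplasmic face RANBP2, the filament protein that docks RANGAP1, was at 188 and 190.3 CPM in PIG-EMPTY and 191 and 212 CPM in PIG-LONA, a log2 fold change of 0.09 ± 0.04. Replicate 2 of PIG-LONA alone stood high. Its paralogs RGPD8 and RGPD3 had 135 to 203 and 11 to 16 raw counts, few beside the 5594 to 8150 of RANBP2, yet reads shared with such copies leave its value uncertain. NUP88 was at 111 and 109 CPM in PIG-EMPTY and 110.5 and 115 CPM in PIG-LONA, a log2 fold change of 0.03 ± 0.04, and NUP214 at -0.02 ± 0.04.

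The nuclear basket faces the chromatin. NUP153, a basket protein that binds import receptors and anchors the basket (ENSG00000124789.11; chromosome 6, 17615035 to 17706834, minus strand), was at 135 and 129 CPM in PIG-EMPTY replicates 1 and 2 and 151 and 162 CPM in PIG-LONA replicates 1 and 2. It rose from 132 ± 4.07 to 157 ± 7.92 CPM, a log2 fold change of 0.25 ± 0.04, the smallest p of the list (edgeR adjusted p = 0.000788), with groups that did not overlap. TPR, the long coiled-coil protein of the basket, was at 453 and 458 CPM in PIG-EMPTY and 467 and 511 CPM in PIG-LONA, a log2 fold change of 0.10 ± 0.04 (edgeR adjusted p = 0.140), and again PIG-LONA replicate 2 stood apart. NUP50, which helps release import cargo, was at 0.08 ± 0.04 and did not pass.

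NUP210 and POM121 sit in the pore membrane. NUP210 was at 288 and 290.3 CPM in PIG-EMPTY and 294 and 304 CPM in PIG-LONA, a log2 fold change of 0.05 ± 0.04, and POM121 was at 109 and 104 CPM in PIG-EMPTY and 108 and 112 CPM in PIG-LONA, a log2 fold change of 0.04 ± 0.04. Neither passed. The near-identical copy POM121C had 2996 to 3853 raw counts, so the split of reads between these copies is uncertain.

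**Figure D3:**
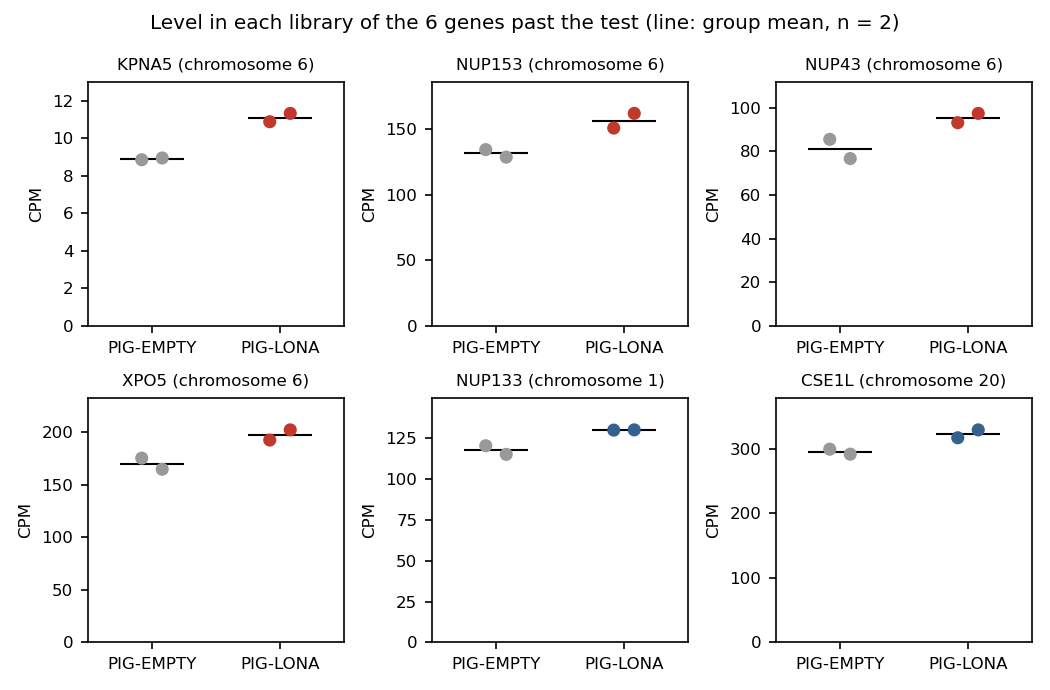
CPM (y axis, from 0) in each library of the 6 genes that passed the test, with group means as lines. In all 6 both PIG-LONA points lie above both PIG-EMPTY points, by 9.39% to 24.9% in fitted fold change.

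The 4 genes of chromosome 6 rose on a chromosome where most tested genes had a log2 fold change above 0, though most did not pass the test. Their median log2 fold change was 0.24, and the median of all 799 tested genes of chromosome 6 was 0.17, with 82.2% of them above 0. The 51 listed genes elsewhere had a median of 0.04, against 0.00 for the 15119 tested genes elsewhere, of which 48.7% were above 0. The difference between the 4 and the 51 genes was not tested. NUP153, XPO5, NUP43 and KPNA5 were higher than 72.1%, 64.6%, 69.2% and 83.7% of the tested genes of the chromosome, so none of them lay outside its distribution.

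The neighbours of the 4 genes had similar medians. Among the 20 nearest tested genes, 10 per side, the median log2 fold change was 0.18 around NUP153, 0.17 around XPO5, 0.18 around KPNA5 and 0.21 around NUP43. Of each set of 20, 17, 17, 18 and 19 in that order were above 0, and 6, 7, 7 and 5 were called higher. Called lower were 1 neighbour of NUP153 and 0 neighbours of the other 3 genes, and the neighbours of NUP153 ran from -1.15 to 1.33. XPO5 overlaps POLR1C and NUP43 overlaps PCMT1 on the opposite strand, and these partners were called higher too, at 0.21 ± 0.05 and 0.20 ± 0.05. The antisense gene NUP153-AS1, at -0.24 ± 0.17, was not.

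With the median shift of chromosome 6 (0.17 between groups) taken out of each library, 0 of the 4 passed. NUP153 was then at 0.08, XPO5 at 0.04, NUP43 at 0.06 and KPNA5 at 0.15, with edgeR adjusted p from 0.325 to 0.612. XPO5 and NUP43 also lost the call without PIG-EMPTY replicate 2 (edgeR adjusted p = 0.159 and 0.293). NUP43 lost it without the low-count filter too (edgeR adjusted p = 0.0788). KPNA5 kept its call in only 4 of the 13 other settings. It lost it without PIG-EMPTY replicate 1 (edgeR adjusted p = 0.205), PIG-EMPTY replicate 2 (0.235) or PIG-LONA replicate 2 (0.132). KPNA5 also missed the threshold with DESeq2 (adjusted p = 0.308), with library totals (edgeR adjusted p = 0.0605), with limma-voom (adjusted p = 0.0538), without the low-count filter (edgeR adjusted p = 0.129) and after removal of the GC and length trend (edgeR adjusted p = 0.0774). CSE1L and NUP133 kept their calls with the shift removed (edgeR adjusted p = 0.0398 and 0.0438). Over the 13 other settings the adjusted p ran from 7.12e-15 to 0.325 for NUP153, from 6.38e-12 to 0.612 for XPO5, from 2.23e-08 to 0.533 for NUP43 and from 0.0177 to 0.460 for KPNA5.

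**Figure D4:**
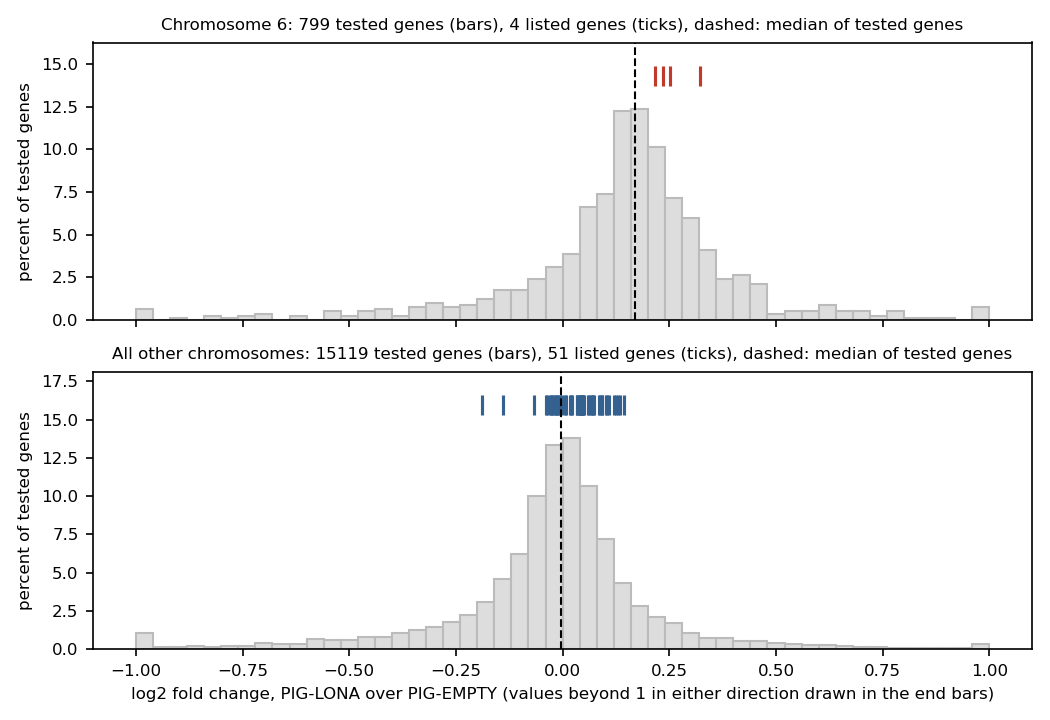
Distribution of log2 fold changes (x axis) as a percentage of tested genes (y axis) on chromosome 6 and elsewhere, with listed genes as ticks. The dashed medians lie at 0.17 and 0.00, and the 4 red ticks fall within the bulk of the chromosome 6 genes.

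CSE1L and NUP133, the called genes elsewhere, kept their calls in 8 of the 13 other settings. Both lost the call without PIG-EMPTY replicate 1 (edgeR adjusted p = 0.207 and 0.124), without PIG-EMPTY replicate 2 (0.518 and 0.549), with DESeq2 (0.0767 and 0.132), with library totals and without the filter on low counts. Their range over all 13 settings was 3.04e-06 to 0.518 for CSE1L and 0.00197 to 0.549 for NUP133, with log2 fold changes between 0.10 and 0.16 for CSE1L and between 0.11 and 0.18 for NUP133.

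By class, with chromosome 6 genes included, the median log2 fold change was 0.05 for exportins, 0.01 for importin alpha adaptors, 0.04 for importin beta receptors, 0.00 for the RAN cycle and -0.06 for the mRNA export receptor. It was 0.08 for the Y complex, 0.09 for the inner ring, 0.05 for the central channel, 0.03 for the cytoplasmic face, 0.10 for the basket and 0.04 for the membrane ring. Away from chromosome 6 the 22 nucleoporins had a median log2 fold change of 0.06, and the 29 soluble transport genes 0.02. The PIG-LONA libraries lay wholly above the PIG-EMPTY libraries in 20 of the 51 genes and wholly below in 6, where the background off chromosome 6 was 21.7% and 25.2% of tested genes. On chromosome 6 they lay wholly above in 4 of 4, where the background was 61.5% above and 7.88% below. Over all 55 genes the counts were 24 and 6, beside 23.7% and 24.4% of all tested genes, and over the 22 nucleoporins off chromosome 6 they were 12 and 3. At an unadjusted p under 0.05, 10 of the 22 nucleoporins were higher and 0 lower, against 1 and 1 of the 29 soluble genes. Of all tested genes off chromosome 6, 7.26% were higher and 9.80% lower at that p. The difference between these classes was not tested. Outside the 55 genes, the pore genes AHCTF1, NDC1, NUP42, NUP58, AAAS, RAE1, GLE1 and POM121C had log2 fold changes from -0.02 to 0.08. Each had an unadjusted p above 0.05 in edgeR.

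The 2 PIG-LONA libraries did not contribute equally. Relative to the PIG-EMPTY mean of each gene, the median nucleoporin off chromosome 6 was at 0.02 (log2) in PIG-LONA replicate 1 and 0.09 in replicate 2, and the median soluble gene at 0.01 and 0.05. Replicate 2 exceeded replicate 1 in 44 of the 55 genes (80%), compared with 50.4% of all tested genes. The 4 genes of chromosome 6 were high in both, with medians of 0.20 and 0.28.

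Without PIG-LONA replicate 1, 22 of the 55 genes were called, 21 higher and 1 lower, and 18 of the 22 lay off chromosome 6; 14.5% of all tested genes were called in that setting. Without PIG-LONA replicate 2, 7 were called, among them NUP54 and NUP155, beside 8.10% of all genes. Without PIG-EMPTY replicate 1 the count was 3 (all genes 4.08%), and without PIG-EMPTY replicate 2 it was 1, NUP153 (all genes 2.71%). It was 3 with DESeq2 (all genes 2.97%), 3 with library totals (5.55%) and 2 without the low-count filter (1.13%). Fold changes off chromosome 6 also went with base composition: across the 51 genes they had a Spearman correlation of -0.49 with the GC content of the gene's transcripts, against -0.10 across 14981 tested genes with a value, where all points share the same 4 libraries. With the trend on GC content and length removed, 7 genes were called, beside 9.29% of all genes, of which 4 lay off chromosome 6 (CSE1L, NUP133, NUP188 and NUP54).

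**Figure D5:**
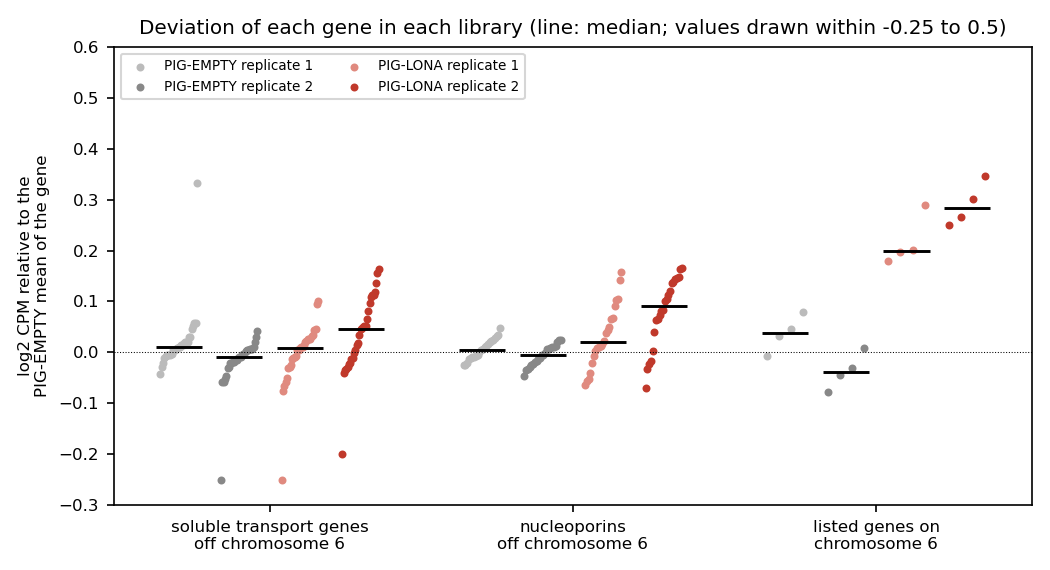
Log2 CPM relative to the gene's PIG-EMPTY mean (y axis) for each gene in each library, by group of genes (x axis), with medians as lines. Off chromosome 6 the medians of PIG-LONA replicate 1 lie near 0 (0.01 and 0.02) and those of replicate 2 at 0.05 and 0.09, whereas on chromosome 6 both are raised.

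Other genes of the pathway were read from 2 lists of 44 genes, 41 of which were tested. Of these, 2 rose, 0 fell and 39 did not pass. The rates over all tested genes were 2.93% called higher and 3.50% called lower. At an unadjusted p under 0.05 the counts were 5 higher and 1 lower, beside 9.23% and 9.43% of all tested genes, and DESeq2 called 1, higher. Among 19 other pore and transport genes NXT2, a relative of NXT1 on chromosome X, rose. It was at 51.6 and 48.2 CPM in PIG-EMPTY and 58.6 and 57.0 CPM in PIG-LONA, a log2 fold change of 0.21 ± 0.05 (edgeR adjusted p = 0.0127), and missed the threshold in DESeq2 (adjusted p = 0.0752), without PIG-EMPTY replicate 2 (edgeR adjusted p = 0.341) and when low counts were not filtered.

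Among 22 tested mRNA export adaptors DDX39B, the helicase that loads export factors on mRNA, rose. It lies on chromosome 6, where 28.3% of tested genes were called higher. Its level was 195 and 177 CPM in PIG-EMPTY and 223 and 225 CPM in PIG-LONA. DDX39B had a log2 fold change of 0.27 ± 0.04 (edgeR adjusted p = 0.000352). With the chromosome 6 shift removed it was at 0.10 (edgeR adjusted p = 0.181), and it also missed the threshold without PIG-EMPTY replicate 2 (edgeR adjusted p = 0.0540). The median log2 fold change was 0.01 over the pore and transport genes and 0.00 over the export adaptors.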

How the data were processed

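Poly(A) RNA of 4 cultures was measured, and the authors deposited raw counts of reads for each Ensembl gene, with a column for each library. FastQC 0.11.4, STAR 2.5, HTSeq and build hg38 are named in the submitters' processing notes; annotation and strand setting were not given in the sources used here, so reads of overlapping or antisense genes cannot be told apart with certainty. Exons of 29 of the 55 genes overlap another gene. Symbols were found for 60357 of 67062 rows, and positions and lengths came from GENCODE release 29 (GRCh38, the same assembly as hg38). Positions were found for 58548 rows, and any tested gene without a position was counted as off chromosome 6.

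Genes passing filterByExpr (minimum count 10, minimum total 15) were tested with edgeR 4.0.16 (R 4.3.3; TMM scaling, glmQLFit and glmQLFTest, intercept and group, two-sided, Benjamini-Hochberg). The SE is the log2 fold change over the square root of F. CPM are counts per TMM-scaled library total. Replicates differed by more than counting noise (chi-square per gene 1.81 in PIG-EMPTY and 4.67 in PIG-LONA), so 4 samples were kept. Tested on simulated data for this comparison (15696 genes), the test recovered 42.0% of genes changed 1.2-fold and 87.8% of those changed 2-fold. Of its calls there, 7.14% were false. The simulation gave both groups the same spread and held no chromosome 6 shift, unlike the data, so these rates may not hold here. Alternatives were DESeq2 1.42.0 size factors or Wald test, library totals, limma-voom (limma 3.58.1), 2 other count filters, the replicate block, removal of the chromosome 6 shift (the difference of medians on prior count 2 log CPM) or of the GC and length trend (loess span 0.3), and each library left out.

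The members and lists were chosen with earlier results of these data known. Values in every library are given for genes past the threshold, for XPO1, KPNB1, RAN and NXF1, for the chromosome 6 genes and for the 2 genes of each class with the smallest p; of each pathway list up to 4 called genes are named. Other members are given as single values, ranges or counts, and IPO7, TNPO1 and KPNA2 were singled out after their values were seen, as was the exon union as length.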

Additional observations from a re-analysis of the deposited data

How the results depend on the processing

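The count of 6 higher genes was 3 with library totals, 3 with DESeq2, 2 without the low-count filter, 2 with the chromosome 6 shift removed, and 1 to 21 with each library left out. The count of 0 lower genes was 0 to 1 with each library left out and 0 in the other settings. Over all genes the count of 1024 was 473 with DESeq2, 334 without the filter and 432 to 2312 with each library left out. The 2 other pathway genes became 1 with DESeq2, 1 without the filter, 1 with the chromosome 6 shift removed, and 0 to 6 with each library left out. The median log2 fold change on chromosome 6 was 0.24, and 0.071 with the shift removed; by construction that setting takes the shared shift out. The cause of the other changes was not tested. With the replicate number as a block, 6 genes were again called, all 6 shared with the fit without it, and 1101 genes in all; the labels do not say that a number marks a shared transduction, and deviations of same-numbered libraries correlated at 0.03. Where a library is left out, the lone sample of its group is assumed to vary like the other group. DESeq2 size factors gave 6 calls (6.41% of all tested genes), limma-voom 6 (6.26%) and the CPM filter 7 (7.87%). The 2 calls with the chromosome 6 shift removed stood beside 4.73% of all tested genes. The KPNA2 share of importin alpha was 76.4% with the exon union as length, chosen after seeing the data. Depth limits IPO4 (9 to 17 counts) most, and all other members had at least 264 counts in each library.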
